A study of Mus musculus with 26 samples.

Results

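The 10 genes described here are Atf4, which encodes the transcription factor ATF4, and 9 genes known as its targets or as enzymes of serine synthesis: Asns, Phgdh, Psat1, Psph, Shmt2, Mthfd2, Chac1, Trib3, and Ddit3. They were chosen by name, with earlier results of these data known. They are 10 of the 52962 gene IDs in the deposited table, and all 10 were among the 15402 genes that passed a filter on low counts, a CPM (count scaled to the library's total) above 0.5 in at least 4 libraries.

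RNA was sequenced from immortalised brown preadipocytes (adipocyte precursors) of newborn mice with floxed alleles of the insulin receptor (IR) and the IGF1 receptor (IGF1R). All cells carried SV40 T-antigen and had both receptors inactivated by an adenovirus expressing GFP and Cre (DKO cells). DKO cells were examined without insulin, and 4 derived lines carried a FLAG-tagged human receptor from a retrovirus: full-length IR, kinase-dead K1030R, ∆CT, which lacks the C-terminal tail, or JMO, which keeps of the intracellular part only the juxtamembrane stretch. The paper also describes DKO cells given an empty retroviral vector, and hygromycin selection after infection. It does not say whether the sequenced DKO cells carried the empty vector. Every culture was starved of serum for 6 h, and each of the 4 receptor lines was left untreated (basal) or given 100 nM insulin for 15 min. This gave 26 libraries in 9 groups, 3 per group and 2 for ∆CT with insulin. Each receptor was examined in 1 line, so the receptor and any other difference between lines cannot be told apart. The sources do not say whether libraries of a group came from separate cultures, so p-values measure the spread between these libraries.

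ATF4 is made when phosphorylation of the initiation factor eIF2 slows general translation, as occurs when amino acids run short or unfolded protein builds up, and its mRNA level also varies. It switches on genes for amino acid synthesis and import and for transfer RNA charging. Serine is made from a glycolytic intermediate by PHGDH, PSAT1, and PSPH in turn. SHMT2 passes the one-carbon unit of serine to mitochondrial folate, and MTHFD2 acts next on the folate that carries it. In growing cells, insulin and mTORC1 signaling are known to raise ATF4 and these enzymes.

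Library totals were between 17228786 and 24694545 counts, and Chac1, the least abundant of the 10 genes, had at least 81 counts in every library. As a check of the lines, mouse Insr was between 22.3 and 24.78 CPM in the DKO libraries and between 65.52 and 99.72 CPM in the libraries of the receptor lines. Igf1r was between 24.72 and 28.59 CPM in DKO and between 29.74 and 35.7 CPM elsewhere. Reads were assigned to mouse transcripts and summed per gene, so transcripts of the human receptor, and those of a gene lacking the deleted exon, cannot be told apart from intact mouse transcripts. Of 10 preadipocyte or mesenchymal markers, 7 were above 0.5 CPM in at least 1 group, and Dlk1, Ebf2, and Zfp423 were not. Of 6 mature adipocyte markers, 1 passed this level (Fabp4). Among 17 markers of muscle, leukocytes, endothelium, and epithelium, 6 did, and their summed level per group was at most 4.54, 20, 13.4, and 0.758 CPM in that order.

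In the GRCm38 annotation, all 10 are protein-coding genes. Atf4 lies at chr15:80255184-80257541, plus strand, and Asns at chr6:7675169-7693254, minus strand. Phgdh lies at chr3:98313170-98339990, Psat1 at chr19:15904678-15947337, and Psph at chr5:129765558-129787449, all on the minus strand. Shmt2 lies at chr10:127517123-127522444 and Mthfd2 at chr6:83305691-83325908, both on the minus strand. Chac1 lies at chr2:119351229-119354381, plus strand, Trib3 at chr2:152337422-152344032, minus strand, and Ddit3 at chr10:127290774-127296288, plus strand. Psph overlaps Cct6a and Ddit3 overlaps Mars on the opposite strand. Whether the counting used strand was not given in the sources used here, so reads of these pairs may be shared. Over all libraries, Cct6a had 139379 counts against 19479 for Psph, and Mars had 54066 against 26829 for Ddit3. Transcripts of 14 other genes match Phgdh at 95% identity or more, over 103 to 1608 aligned bases. They had at most 51 counts each over all libraries against 107309 for Phgdh.

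The promoters of the 10 genes were searched for TGATGNAA, letters shared by many ATF4 binding sites, on both strands of the 250 bases before the RefSeq start site (GRCm38.p6). The letters were found for 2 of the 10 genes, and in 3.45% of 32851 windows of that length. Both matches are printed because Asns and Chac1 are among the genes that differed most between lines. Capitals mark the match, at -23 to -16 from the start site in Asns (chr6:7693225-7693292, minus strand) and at -193 to -186 in Chac1 (chr2:119350992-119351116, plus strand), where it is read on the opposite strand as TGATGCAA. The Asns match lies inside the gene as the other annotation draws it. A match describes the letters and is not evidence of binding.
Asns: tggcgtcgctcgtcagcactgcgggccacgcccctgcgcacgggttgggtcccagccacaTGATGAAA
Chac1: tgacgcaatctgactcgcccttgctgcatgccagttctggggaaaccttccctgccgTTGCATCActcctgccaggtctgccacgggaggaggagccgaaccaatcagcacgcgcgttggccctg

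In the basal state, 9 of the 10 genes were higher in IR, K1030R, and ∆CT cells than in DKO cells, with Trib3 and Chac1 the most changed and Ddit3 the exception. In JMO cells, 8 of these were also higher than in DKO cells, but by less, and Atf4 was not among them. A gene was called at a Benjamini-Hochberg adjusted p below 0.05 in edgeR's quasi-likelihood test over all 15402 genes, and a second, stricter call required a change shown to exceed 1.5-fold. In IR against DKO, 9 genes were called higher and 0 lower, where 49.8% of all tested genes were called. The stricter call took 6 of the 10, against 6.89% of all genes. In K1030R against DKO, 9 were higher and 1 lower (41.6% of all genes called), and 5 passed 1.5-fold (5.29%). In ∆CT against DKO, 9 were higher and 0 lower (46.3%), and 5 passed 1.5-fold (6.29%). In JMO against DKO, 8 were higher and 1 lower (34.3%), and 0 passed 1.5-fold (2.11%). Because so many genes were called without a minimum fold, each count is to be read beside its share of all genes. RNA came from whole cultures, so fewer expressing cells and less RNA per cell cannot be told apart.

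**Figure D1:**
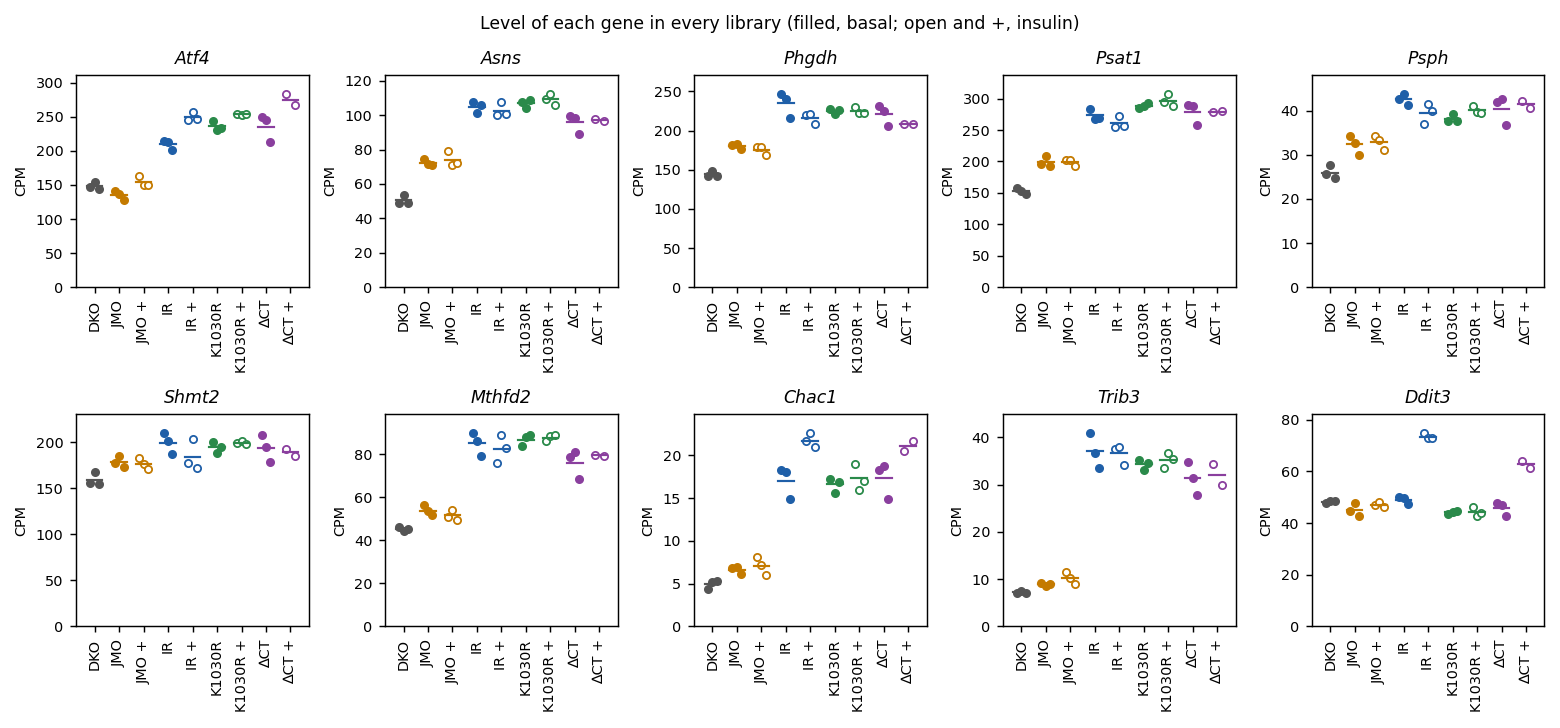
Level of each of the 10 genes in every library, as CPM after TMM scaling on a linear axis that starts at 0, with 1 panel per gene and 1 column per group. Filled points are basal and open points insulin-treated libraries, and lines are group means; for Trib3, the 3 DKO libraries sit between 7.12 and 7.45 CPM and the 17 libraries of IR, K1030R, and ∆CT cells between 27.79 and 40.86 CPM.

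Trib3 encodes a pseudokinase that binds AKT and ATF4, and it showed the largest difference of the 10. It was at 7.12, 7.45, and 7.13 CPM in the DKO libraries and at 40.9, 36.7, and 33.5 CPM in basal IR libraries. K1030R cells had 35.2, 33.2, and 34.6 CPM, and ∆CT cells had 34.7, 31.4, and 27.8 CPM. JMO cells, at 9.15, 8.62, and 9.02 CPM, lay close to DKO and far below the other receptor lines, without overlap with either. Such groups were also apart for many of all tested genes, with 54.9% for IR against DKO, 50.5% for K1030R, 51.5% for ∆CT, and 47% for JMO. For JMO against IR, K1030R, and ∆CT the shares were 49.3%, 47.2%, and 46.2%. The log2 fold change against DKO was 2.36 ± 0.091 (SE) for IR (5.13-fold), 2.25 ± 0.092 for K1030R, and 2.12 ± 0.093 for ∆CT, with adjusted p of 1.88e-20, 1.47e-19, and 6.58e-19. For JMO it was 0.31 ± 0.11 (adjusted p = 0.0298), and this call was lost without DKO library 1 (adjusted p = 0.0731), DKO library 3 (0.0859), JMO library 1 (0.0864), or JMO library 3 (0.0689).

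Chac1 encodes an enzyme that degrades glutathione. It was scarce in DKO cells, at 4.4, 5.23, and 5.33 CPM, and stood at 18.3, 18, and 14.9 CPM in IR cells. K1030R libraries had 17.2, 15.7, and 16.9 CPM and ∆CT libraries 18.4, 18.8, and 14.9 CPM. All 9 of these lay above every DKO and JMO library, and the shares of all genes with such groups apart are those given for Trib3. The log2 fold change against DKO was 1.77 ± 0.11 for IR, 1.73 ± 0.11 for K1030R, and 1.79 ± 0.11 for ∆CT (adjusted p = 1.05e-15, 4.57e-15, and 9.14e-16). JMO cells had 6.87, 6.94, and 6.15 CPM, a log2 fold change of 0.41 ± 0.12 (adjusted p = 0.00908), which missed the threshold without DKO library 1 (0.34, adjusted p = 0.0605).

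Asns encodes asparagine synthetase. It was at 49.1, 53.6, and 49.1 CPM in DKO, 108, 101, and 106 CPM in IR, 108, 104, and 109 CPM in K1030R, and 99.6, 98.5, and 89.3 CPM in ∆CT libraries. JMO libraries, at 74.4, 71.6, and 71.3 CPM, lay between DKO and the other lines with no overlap, beside the same shares of all genes. The log2 fold changes against DKO were 1.06 ± 0.046, 1.08 ± 0.046, and 0.92 ± 0.046 for IR, K1030R, and ∆CT, and 0.52 ± 0.047 for JMO (adjusted p = 6.56e-11), the largest JMO difference of the 10 genes.

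The 3 enzymes of serine synthesis were also lowest in DKO, next in JMO, and higher in the other receptor lines, whose order varied by gene. Phgdh, the first enzyme, was at 142, 148, and 142 CPM in DKO, 247, 241, and 216 CPM in IR, and 182, 183, and 177 CPM in JMO libraries. Psat1, the transaminase, was at 158, 153, and 149 CPM in DKO, 284, 268, and 269 CPM in IR, and 197, 208, and 192 CPM in JMO libraries. Psph, the phosphatase of the last step, was at 25.6, 27.6, and 24.6 CPM in DKO, 42.6, 43.8, and 41.2 CPM in IR, and 34.2, 32.8, and 30 CPM in JMO libraries. For each enzyme the DKO, JMO, and IR libraries did not overlap, which also held for 54.9% of all genes between IR and DKO, 47% between JMO and DKO, and 49.3% between JMO and IR. K1030R and ∆CT means were 225 and 221 CPM for Phgdh, 289 and 279 CPM for Psat1, and 38.2 and 40.4 CPM for Psph. Log2 fold changes against DKO in IR, K1030R, and ∆CT cells were 0.70, 0.64, and 0.62 for Phgdh, 0.84, 0.91, and 0.86 for Psat1, and 0.72, 0.56, and 0.65 for Psph. In JMO cells they were 0.33 ± 0.042 (adjusted p = 1.06e-07), 0.38 ± 0.040 (2.54e-09), and 0.33 ± 0.060 (5.6e-05). Cct6a, which overlaps Psph on the other strand, changed against DKO by -0.30 in IR cells (adjusted p = 3.65e-05). It changed by 0.03 in K1030R (adjusted p = 0.646), 0.08 in ∆CT (0.213), and -0.03 in JMO cells (0.699).

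The mitochondrial folate enzymes differed in size of change. Mthfd2 was at 46.1, 44.4, and 45.4 CPM in DKO, 89.9, 86.4, and 79.4 CPM in IR, and 56.4, 53.7, and 51.7 CPM in JMO libraries. K1030R and ∆CT means were 86.9 and 76.2 CPM. Its log2 fold change against DKO was 0.91 ± 0.057 for IR, 0.94 ± 0.057 for K1030R, 0.75 ± 0.057 for ∆CT, and 0.25 ± 0.059 for JMO (adjusted p = 0.000989). Shmt2, which supplies the one-carbon unit, was at 156, 167, and 155 CPM in DKO, 210, 201, and 187 CPM in IR, and 177, 185, and 173 CPM in JMO libraries. Its log2 fold change was 0.33 ± 0.056 for IR, 0.29 ± 0.056 for K1030R, and 0.28 ± 0.056 for ∆CT. In JMO cells it was 0.16 ± 0.056 (adjusted p = 0.0266), a call lost without DKO library 1 (adjusted p = 0.0843) or 3 (0.0979) or without JMO library 1 (0.051) or 2 (0.103).

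Atf4 itself separated from its targets in JMO cells. It was at 148, 155, and 144 CPM in DKO and at 215, 213, and 201 CPM in IR libraries. K1030R libraries had 243, 231, and 234 CPM and ∆CT libraries 250, 245, and 213 CPM. The log2 fold change against DKO was 0.50 ± 0.047 for IR and 0.67 ± 0.047 for both K1030R and ∆CT (adjusted p = 1.89e-10, 3.14e-13, and 2.75e-13). JMO libraries had 141, 136, and 128 CPM, below the DKO libraries, where 47% of all genes had these groups apart. The log2 fold change of Atf4 was -0.14 ± 0.048 (adjusted p = 0.0253). This call was lost without DKO library 1 (adjusted p = 0.0524), DKO library 2 (0.126), or JMO library 3 (0.155), and insulin-treated JMO libraries against DKO gave 0.06 (adjusted p = 0.378).

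Ddit3, which encodes the stress-induced transcription factor CHOP, varied little in the basal state. It was at 47.7, 48.6, and 48.5 CPM in DKO, 49.9, 49.9, and 47.3 CPM in IR, and 43.6, 44.5, and 44.5 CPM in K1030R libraries. ∆CT libraries had 47.7, 47.1, and 42.9 CPM and JMO libraries 44.7, 47.6, and 42.7 CPM. The log2 fold change against DKO was 0.02 in IR (95% interval -0.07 to 0.11), -0.07 in ∆CT (-0.16 to 0.02), and -0.10 in JMO cells (-0.19 to -0.01, adjusted p = 0.0755). In K1030R cells it was -0.13 ± 0.046 (adjusted p = 0.0244), a call lost without DKO library 2 (adjusted p = 0.0589), DKO library 3 (0.0606), or K1030R library 1 (0.067).

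**Figure D2:**
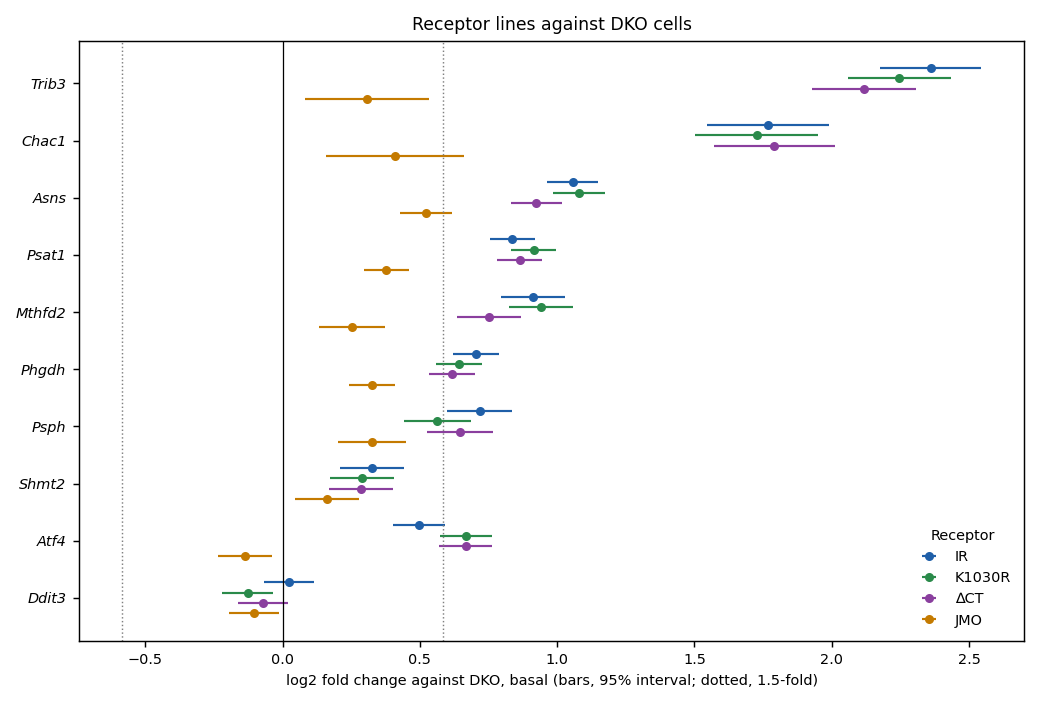
Log2 fold change of each gene in basal IR, K1030R, ∆CT, and JMO cells against DKO cells (points) with 95% intervals (bars), and dotted lines at 1.5-fold. IR, K1030R, and ∆CT lie together for each gene, from 2.12 to 2.36 for Trib3, while JMO lies nearer to 0 for every gene but Ddit3.

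Setting the receptor lines against each other gave the same split. In JMO against IR, 10 of the 10 genes were called lower, where 42.4% of all genes were called, and Trib3 and Chac1 passed 1.5-fold (2 of 10, against 4.59%). In JMO against K1030R, 8 were lower (35.4%), and in JMO against ∆CT, 8 were lower (38.8%). In each of these, 3 genes, Atf4, Chac1, and Trib3, passed 1.5-fold (3.64% and 4.5% of all genes). The log2 difference of JMO from IR, K1030R, and ∆CT was -2.05, -1.94, and -1.81 for Trib3, -1.36, -1.32, and -1.38 for Chac1, and -0.63, -0.80, and -0.80 for Atf4. Shmt2 (-0.16, adjusted p = 0.0203) and Ddit3 (-0.13, adjusted p = 0.0225) were the smallest differences of JMO from IR. Each was lost without IR library 1, IR library 2, JMO library 1, or JMO library 3, with adjusted p between 0.0555 and 0.163.

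The lines that keep the kinase region differed much less from each other. In K1030R against IR, Atf4 was higher by 0.17 ± 0.046 on the log2 scale (adjusted p = 0.00462), and Ddit3 (-0.15, adjusted p = 0.011) and Psph (-0.15, adjusted p = 0.0359) were lower. That made 3 of 10, where 30.2% of all genes were called, and 0 passed 1.5-fold (1.04%). The Psph call was lost without IR library 1 (adjusted p = 0.0798) or 2 (0.126), K1030R library 1 (0.0981) or 3 (0.103), or JMO insulin library 2 (0.063) or 3 (0.0557). Cct6a, which overlaps Psph, was higher by 0.33 in this comparison (adjusted p = 2.33e-05). For Trib3 the difference of K1030R from IR was -0.11, with a 95% interval of -0.26 to 0.03, and for Chac1 it was -0.04 (-0.23 to 0.15).

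In ∆CT against IR, Atf4 was higher by 0.17 ± 0.046 (adjusted p = 0.00593), and Asns (-0.13, adjusted p = 0.021), Mthfd2 (-0.16, 0.0239), and Trib3 (-0.24, 0.012) were lower, 4 of 10 against 26.1% of all genes. In that comparison 0 passed 1.5-fold (0.708%). In ∆CT against K1030R, Asns (-0.16, adjusted p = 0.0365) and Mthfd2 (-0.19, adjusted p = 0.0445) were lower, 2 of 10 against 3.43%, and 0 passed 1.5-fold (0.039%). All 10 genes were at their lowest of the ∆CT basal libraries in library 3, and the share of all genes with this pattern was not counted. Over all tested genes, that library also lay farthest of all libraries from its group mean (root mean square 0.249 on the log2 scale). The margin was small: the next were IR basal library 3 at 0.235 and ∆CT basal library 2 at 0.233. Without ∆CT basal library 3, Asns, Mthfd2, and Trib3 were no longer called in ∆CT against IR (adjusted p = 0.158, 0.187, and 0.0922). Nor were Asns and Mthfd2 in ∆CT against K1030R (0.202 and 0.229). Without IR library 1, the same 3 calls against IR were also lost (adjusted p between 0.0964 and 0.152), and Mthfd2 was lost without IR library 2 as well (0.0732). The Atf4 call against IR was lost without ∆CT library 1 (0.0659) or 2 (0.0511). Without K1030R library 1 or 3, both calls of ∆CT against K1030R were lost, and that for Mthfd2 was also lost without K1030R library 2 (0.118), ∆CT library 1 (0.062), or any of several libraries of other groups. The nearness of these lines is bounded by the intervals: for the 8 targets other than Atf4 and Ddit3, no 95% interval of basal ∆CT or K1030R against IR went beyond -0.39 or above 0.21.

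With insulin for 15 min, Ddit3 and Atf4 were called higher in IR and ∆CT cells, Chac1 in IR cells, and the biosynthetic enzymes in no line. Among the enzymes, Phgdh in IR cells was called lower without IR basal library 3 (-0.17, adjusted p = 0.00583) and Shmt2 without IR insulin library 2 (-0.19, adjusted p = 0.0349). Ddit3 libraries of IR cells were at 74.8, 72.8, and 72.8 CPM with insulin, against 49.9, 49.9, and 47.3 CPM without. In ∆CT cells they were at 64.1 and 61.4 CPM, against 47.7, 47.1, and 42.9 CPM. Basal and insulin-treated libraries did not overlap in either line, which held for 16.2% of all genes in IR and 23.4% in ∆CT cells. The log2 fold change was 0.58 ± 0.043 in IR (1.5-fold, adjusted p = 1.67e-12) and 0.45 ± 0.048 in ∆CT cells (adjusted p = 3.79e-08). In K1030R cells insulin-treated libraries had 46.3, 42.8, and 43.9 CPM, a log2 change of 0.004 with a 95% interval of -0.09 to 0.10. In JMO cells they had 47, 48, and 46.1 CPM, a log2 change of 0.07 with an interval of -0.03 to 0.16. Mars, which overlaps Ddit3 on the other strand, changed by -0.03 with insulin in IR (adjusted p = 0.836) and by 0.02 in ∆CT cells (0.917).

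Atf4 libraries with insulin were at 246, 258, and 246 CPM in IR cells, all above the basal libraries (groups apart for 16.2% of all genes). The log2 fold change was 0.25 ± 0.046 (adjusted p = 0.000998). ∆CT cells with insulin had 284 and 267 CPM, 0.22 ± 0.051 above basal (adjusted p = 0.0166). That call was lost without ∆CT basal library 3 (0.16, adjusted p = 0.0995) or ∆CT insulin library 1 (0.19, adjusted p = 0.359). JMO cells had 163, 150, and 150 CPM, a log2 difference of 0.19 ± 0.047 that did not pass the threshold (adjusted p = 0.075). It did pass with the replicate block (adjusted p = 0.00974), DESeq2 (0.0487), no filter (0.00101), or the 2 JMO groups alone (0.0331), and without ∆CT basal library 1 (0.0444) or 3 (0.00762). K1030R cells had 255, 253, and 254 CPM, a log2 difference of 0.11 ± 0.046 (adjusted p = 0.724). Chac1 was called higher with insulin in IR cells, at 21.7, 22.6, and 20.9 CPM against 18.3, 18, and 14.9 CPM (0.35 ± 0.089, adjusted p = 0.0295). That call was lost when IR basal library 2 or 3 or any of the 3 IR insulin libraries was left out, with adjusted p between 0.0563 and 0.0911. In ∆CT cells Chac1 had 20.5 and 21.7 CPM with insulin, 0.28 ± 0.099 above basal (adjusted p = 0.267).

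Counted over the 10 genes, insulin called 3 higher in IR cells (1.87% of all genes called), 2 higher in ∆CT cells (1.01%), 0 in K1030R (0.156%), and 0 in JMO cells (0.364%). The 1.5-fold call took 0 of the 10 in every line, against 0.221% of all genes in IR, 0.214% in ∆CT, 0% in K1030R, and 0.039% in JMO cells. For Trib3, the most changed gene between lines, the insulin effect was -0.02 in IR cells, with a 95% interval of -0.16 to 0.13. For Asns it was -0.03 (-0.12 to 0.06). The difference between insulin effects was tested in the same model. For Ddit3 the effect was smaller in K1030R than in IR cells by -0.58 ± 0.063 (adjusted p = 7.42e-08; 1 of 10 genes called, against 0.37% of all genes). It was smaller in JMO than in IR cells by -0.52 ± 0.062 (adjusted p = 8.55e-07; 1 of 10, against 0.279%). For ∆CT against IR, 0 of the 10 were called (0.00649% of all genes), and the Ddit3 difference was -0.13, with an interval of -0.27 to -0.002. The differences for Atf4, -0.15 in K1030R and -0.06 in JMO cells against IR, did not pass the threshold (adjusted p = 0.578 and 0.919).

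**Figure D3:**
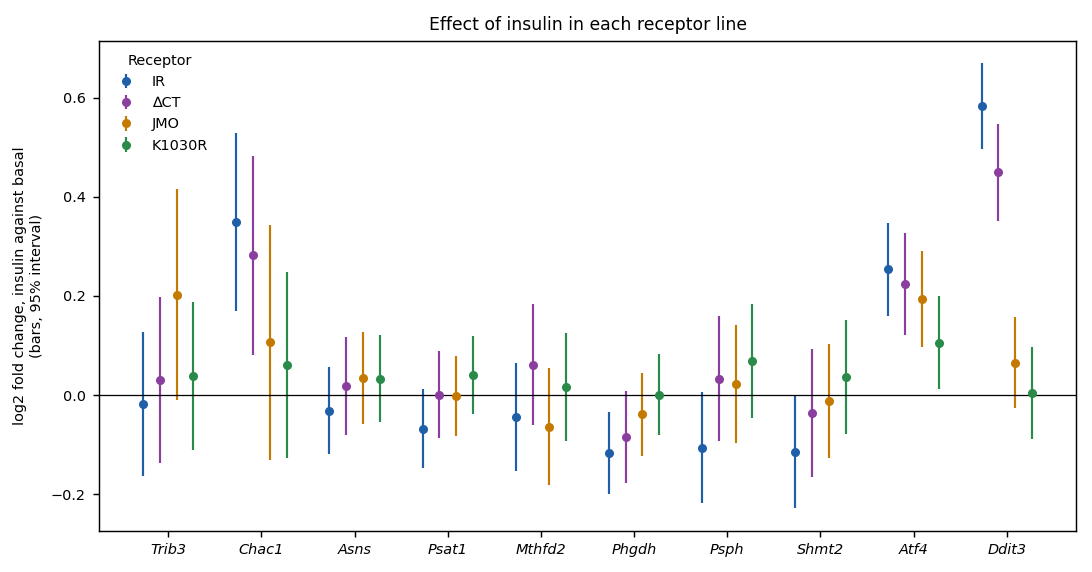
Log2 fold change of each gene with insulin against basal in IR, ∆CT, JMO, and K1030R cells (points) with 95% intervals (bars). Ddit3 lies at 0.58 in IR and 0.45 in ∆CT cells and near 0 in the other lines, and the points for Asns, Psat1, and Mthfd2 lie within 0.07 of 0 in all 4 lines.

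The insulin-treated libraries, which are other libraries of the same 4 lines, were compared in the same way. DKO cells had no insulin-treated libraries, so the differences from DKO below hold the line difference and any insulin effect together. Ddit3 and Atf4 were both called higher with insulin in IR cells. In IR against DKO they were at 0.61 and 0.75 here, and at 0.02 and 0.50 in the basal state. Taken against the same DKO libraries, 10 genes were higher in IR and 10 in ∆CT cells, 9 were higher and 1 lower in K1030R cells, where 49.7%, 41.7%, and 42.9% of all genes were called in that order. In each, 6 passed 1.5-fold (7.03% of all genes in IR, 6.22% in ∆CT, and 5.41% in K1030R). In JMO cells 8 were higher (36.3%) and 0 passed 1.5-fold (2.01%). The log2 fold change of Trib3 was 2.34 for IR, 2.28 for K1030R, 2.15 for ∆CT, and 0.51 for JMO. Between insulin-treated lines, JMO was lower than IR for 9 of 10 genes (40.2% of all genes called), with Shmt2 the exception, at -0.06 (adjusted p = 0.423). In K1030R against IR, 1 of 10 was higher and 2 lower (34%): Psat1 at 0.19 (adjusted p = 0.000278), Chac1 at -0.33 (0.00354, 95% interval -0.51 to -0.15), and Ddit3. The first 2 were not called between the basal libraries. Ddit3, at -0.73, was the 1 gene to pass 1.5-fold (adjusted p = 0.02 in that test), against 1.25% of all genes.

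Across all libraries, 8 genes (Atf4, Asns, Phgdh, Psat1, Psph, Mthfd2, Chac1, and Trib3) had every one of the 17 libraries of IR, K1030R, and ∆CT cells above every DKO and JMO library, a pattern of 5.21% of all tested genes. For 7 of them, all but Atf4, every JMO library was also above every DKO library, a pattern of 1.57% of tested genes. Shmt2 lacked the first pattern: its 17 libraries were between 172 and 210 CPM, and the 6 JMO libraries between 171 and 185 CPM. Over the 9 group means of log2 CPM, the 8 targets other than Atf4 and Ddit3 correlated with each other at Pearson's r between 0.829 and 0.987 (28 pairs). Atf4 correlated with those 8 at 0.73 to 0.955, and Ddit3 with the other 9 at -0.0598 to 0.448. These r describe 9 points that share lines and libraries.

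The genes whose group means were most like each of the 10 were looked up among 5512 tested genes that varied by at least 1.5-fold between groups. For Asns and Phgdh the closest was Slc7a5 (r = 0.991 for each), a subunit of the transporter of large neutral amino acids, followed by Trim66 and Efna5 for Asns and by Efna5 and Tox for Phgdh. For Psat1 the closest were Slc1a4 (0.998), a neutral amino acid transporter, and Aldh18a1 (0.996), the first enzyme of proline synthesis, and then Olfml2a (0.995). For Trib3 they were Sema3a (0.996), a guidance factor, Tnmd (0.994), and Ptprq (0.993). Chac1 was closest to Pcyt1b (0.99), then Mum1l1 and Crocc2, and Psph to Fam13c (0.984), then Disp1 and Map2k6. Mthfd2 was closest to Fkbp9 (0.988), then Olfml2a and Tecr, and Shmt2 to Tkfc (0.959), then Cldn1 and 2310009B15Rik. Atf4 was closest to Adamts1 (0.979), then Gramd2 and Cers4. Ddit3 was closest to Nr4a1 (0.991), Fosb (0.969), and Zfp36 (0.957), which are known immediate early genes.

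Beyond the 10, a list of 30 other genes known as ATF4 targets was examined, of which 28 were tested (Vldlr and Fgf21 were too low). In IR against DKO, 21 were higher and 3 lower, with a median log2 fold change of 0.59, where the median of all genes was 0.01. In K1030R the counts were 19 and 4 (median 0.54) and in ∆CT cells 20 and 4 (0.45). In JMO cells 10 were higher and 1 lower (0.12). Of all genes, 49.8%, 41.6%, 46.3%, and 34.3% were called in these 4 comparisons, both directions together. The JMO count of both directions lies near its share. Its directions were less even, with 10 higher and 1 lower, where 2596 of all genes were higher and 2680 lower. Those passing 1.5-fold numbered 8, 7, 7, and 1, against 6.89%, 5.29%, 6.29%, and 2.11% of all genes. Pycr1, a proline synthesis enzyme, was at 8.52 ± 1.15 (SD, n = 3) CPM in DKO, 26.5 ± 1.16 in IR, and 11.9 ± 0.23 in JMO cells, with log2 fold changes of 1.66 in IR and 0.49 in JMO cells. Gpt2, the mitochondrial alanine transaminase, had 1.49 and 0.59, and Atf5, a related transcription factor, 1.45 and 0.28. Slc7a5 had 1.11 and 0.47. Slc7a11, the cystine importer, was the exception in JMO cells, at 1.39 in IR and 1.19 in JMO cells (adjusted p = 9.12e-12), and was the 1 gene of the list to pass 1.5-fold there. The genes called lower in IR cells were Cebpb (-0.68), Vegfa (-0.56), and Ppp1r15a (-0.18), named here after their values were seen.

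For the related lists, the shares of all genes called, both directions together, are the same 49.8% (IR), 41.6% (K1030R), 46.3% (∆CT), and 34.3% (JMO). Of 20 cytosolic aminoacyl-tRNA synthetases, 11 were higher and 6 lower in IR, 13 and 0 in K1030R, 13 and 0 in ∆CT, and 8 and 1 in JMO cells against DKO. Aars, which charges alanine tRNA, was at 0.69 in IR and 0.22 in JMO cells on the log2 scale. Of 18 other folate and one-carbon genes, 5 were higher and 5 lower in IR cells and 2 and 3 in JMO cells, near those shares. Aldh1l2, a mitochondrial folate enzyme, was at 93.3 ± 2.28 CPM (SD, n = 3) in DKO and 141 ± 6.96 in JMO cells, and at 298 ± 8.34, 241 ± 3.83, and 237 ± 2.6 CPM with IR, K1030R, and ∆CT. Its log2 fold changes against DKO were 1.68 for IR, 1.37 for K1030R, 1.34 for ∆CT, and 0.60 for JMO. Of 9 genes of glutamine, aspartate, and asparagine metabolism, 1 was higher and 3 lower in IR cells.

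Genes upstream of ATF4 and of the other arms of the unfolded protein response were called in both directions. Against the same shares of all genes, of 13 genes of eIF2 kinases, phosphatase, and exchange factor, 2 were higher and 7 lower in IR, 4 and 5 in K1030R, 3 and 5 in ∆CT, and 1 and 2 in JMO cells against DKO. Eif2ak2, the double-stranded RNA-activated kinase PKR, was lower with IR (-0.43), K1030R (-0.80), and ∆CT (-1.09) and was at 0.01 in JMO cells (adjusted p = 0.96). Of 14 genes of the ATF6 and XBP1 arms, 3 were higher and 11 lower in IR cells, with a median of -0.30, against 5 and 5 in K1030R and 5 and 4 in ∆CT cells. Herpud1, which acts in degradation of endoplasmic reticulum proteins, was higher by 1.07 with IR, 1.01 with K1030R, 1.11 with ∆CT, and 0.40 with JMO. Of 8 tested genes for ATF4 stability and partners (Mycn was too low), 1 was higher and 5 lower in IR cells. Myc, which encodes a growth-promoting transcription factor, was lower with IR (-1.24), K1030R (-0.67), and ∆CT (-0.88) and stood at -0.14 in JMO cells (adjusted p = 0.232).

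**Figure D4:**
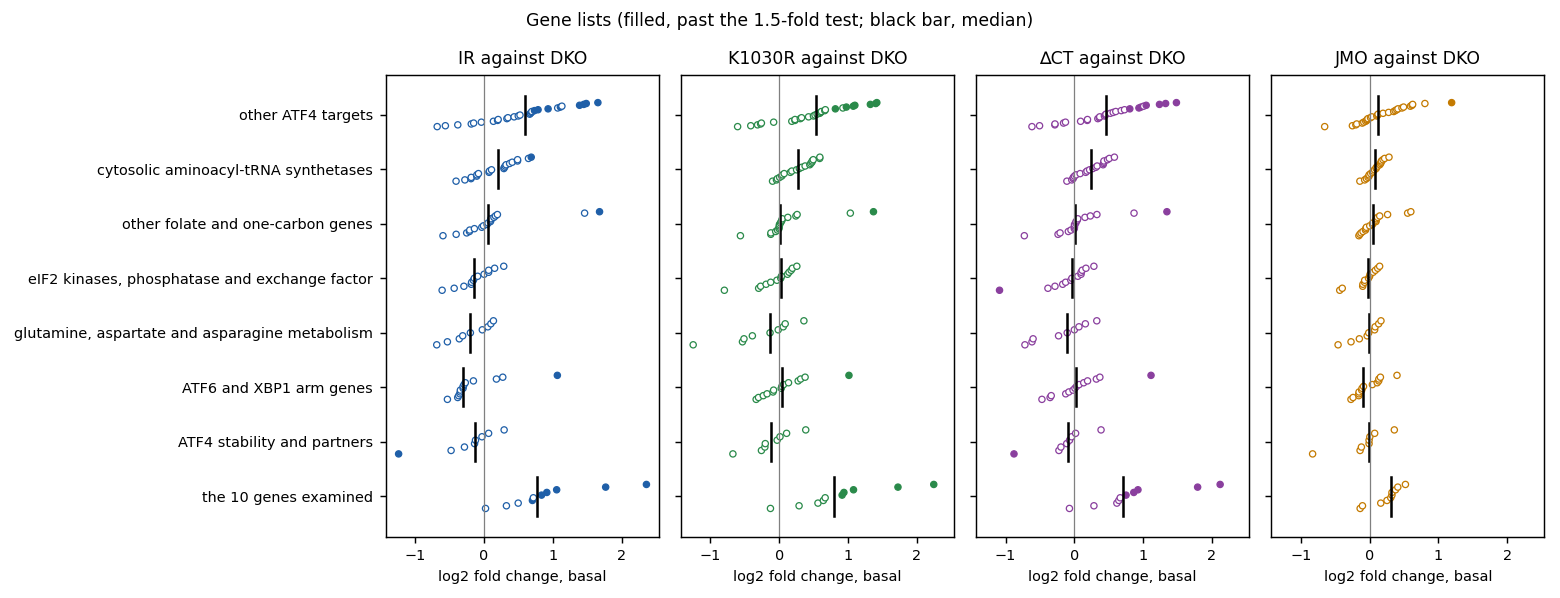
Log2 fold change against DKO in basal IR, K1030R, ∆CT, and JMO cells for each gene of the 7 lists and for the 10 genes examined (points, filled where the 1.5-fold test was passed), with the median of each list as a black bar. The median of the other ATF4 targets lies at 0.59 in IR and 0.12 in JMO cells. The medians of the remaining lists, not counting the 10 genes examined, lie between -0.30 and 0.27.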

How the data were processed

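RNA-seq of 26 libraries in 9 groups was used, grouped by the labels. According to the authors' methods, oligo-dT-selected, stranded libraries were read as single ends, trimmed with fastp, and quantified with kallisto against the Ensembl 98 mouse transcriptome, with gene sums from tximport. Tool versions were not given in the sources used here. The values deposited by the authors are expected counts per gene, neither filtered nor scaled, and 79.93% of them are whole numbers. They were rounded. Library totals were 17228786 to 24694545, so that 0.5 CPM is about 10 counts, and intervals cover the spread between libraries.

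Genes above 0.5 CPM in at least 4 libraries were kept. CPM were scaled with TMM factors (0.966 to 1.05) in edgeR 4.0.16 under R 4.3.3, and all 26 libraries entered a single quasi-likelihood fit that gave each group its own mean, with robust dispersion. Contrasts were tested for any change and, with glmTreat, for a change beyond 1.5-fold, with Benjamini-Hochberg adjustment over all genes. The script was tested on simulated data. Replicate pairs differed by more than sampling noise (chi-square per degree of freedom 2.92 to 23.6 over 25 pairs). Alternatives were RLE scaling, 2 other filters, unrounded counts, DESeq2 1.42.0, limma 3.58.1, the compared groups alone, a replicate block, insulin-treated libraries, and each library left out.

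The 10 genes and the lists were chosen with earlier results of these data known. Named are all 10 genes, the 3 genes most correlated with each, and from each list up to 5 genes with the largest fold change among those past 1.5-fold against DKO. Promoter sequences are from RefSeq.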

Additional observations from a re-analysis of the deposited data

Results flagged for a closer look

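Ddit3 responded to insulin differently between receptor lines, by a test of the difference in the model over all libraries. The insulin effect in K1030R cells was lower than that in IR cells by -0.5792 on the log2 scale (adjusted p = 7.42e-08), and the effect in JMO cells was lower than that in IR cells by -0.5179 (adjusted p = 8.55e-07). Insulin-treated libraries lay above basal ones in 3 of 3 IR libraries, and the K1030R and JMO ranges overlapped with their basal ranges.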

How the results depend on the processing

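Single-gene values (all against DKO, and those called elsewhere) kept direction and side of the threshold in 688 of the results under settings other than a left-out library, 23 lost the threshold, 1 gained it, and 3 reversed. The reversals came with insulin-treated in place of basal libraries, a setting that changes the treatment and not only the processing. They were Ddit3 in ∆CT against DKO at 0.3779, Atf4 in JMO against DKO at 0.05704, and Psph in K1030R against IR at 0.02081. With a library left out, 2013 were kept, 66 lost the threshold, 1 gained it, and 0 reversed. The count of genes called with insulin in JMO cells was 1, Atf4, without a filter, with DESeq2, with the 2 groups alone, and with the replicate block, and 0 to 1 with a library left out. That for ∆CT against K1030R was 0 with limma and with the 2 groups alone, and 0 to 2 with a library left out. That for ∆CT against IR was 1 with the 2 groups alone and with insulin-treated libraries, and 1 to 5 with a library left out. Insulin in ∆CT cells called 1 with the 2 groups alone and 1 to 2 with a library left out. K1030R against IR gave 1 past 1.5-fold, Ddit3, with insulin-treated libraries, and JMO against DKO 5 to 9 with a library left out, 5 without DKO library 1. The cause was not tested. Trib3 in JMO against DKO was lost with limma (adjusted p = 0.0924). Replicate numbers did not pair the libraries (median correlation of same-numbered deviations -0.0011 over 100 pairs, against -0.0016 over 200 others), and the replicate block moved no other count by over 1.5 times. Arms left with 1 library by leaving out ∆CT with insulin were assumed to vary like the other groups.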

Other observations

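Ppp1r15a, which encodes the regulatory subunit that directs a phosphatase to eIF2 and so opposes the signal that raises ATF4, was picked after its values were seen. It was higher with insulin in all 4 receptor lines, by 1.05 ± 0.063 (SE) on the log2 scale in IR, 0.95 ± 0.070 in ∆CT, 0.40 ± 0.062 in JMO, and 0.37 ± 0.068 in K1030R cells (edgeR adjusted p = 7.08e-15, 3.07e-12, 0.00037, and 0.00677). The difference between lines was not tested for this gene.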
